A study of Mus musculus with 7 samples.

Results

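The miR-297, miR-466, miR-467 and miR-669 families are rodent microRNAs (miRNAs) built on short alternating repeats. Their members were taken by name, as every row of the deposited miRNA tables whose name starts with mmu-miR-297, mmu-miR-466, mmu-miR-467 or mmu-miR-669 followed by a letter or a hyphen. This gave 80 of 1908 mature miRNAs, of which 6 belonged to miR-297, 31 to miR-466, 13 to miR-467 and 30 to miR-669. By name, 33 were 5p arms, 35 were 3p arms and 12 carried no arm in the name. Small RNAs were sequenced from cells sorted by fluorescence out of dissociated embryonic mouse spinal cord. At stage E10.5 (in days of embryonic development), Hb9::gfp embryos, in which the promoter of the motoneuron homeobox gene Hb9 drives GFP, gave 2 libraries of motoneurons, sorted as GFP-positive, and 2 libraries of all other cells of the dissected cord, sorted as GFP-negative. At E12.5 there was 1 library each of GFP-positive motoneurons from Hb9::gfp embryos, of V2a interneurons labelled by tdTomato in embryos with Chx10::cre and a Rosa26::LSL::tdTomato reporter, and of V3 interneurons labelled in the same way through Sim1::cre. The Cre-dependent reporter stays on in every cell whose lineage once expressed Cre. Whether the replicates are separate litters or separate sorts is not in the labels. All p-values therefore refer only to the spread between these libraries, and part of it may be technical.

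A mature miRNA is cut from one arm, 5p or 3p, of a hairpin, and guides silencing of messenger RNAs that pair with its seed, bases 2 to 8. Most hairpins of these families lie in an intron of Sfmbt2, a Polycomb group gene that is imprinted and expressed from the paternal allele in the early embryo and the placenta. The cluster is a rodent expansion of tandem copies, so that many hairpins yield identical or near-identical miRNAs, and in mouse it is known mainly for its part in the growth of the placenta.

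RefSeq (GRCm38.p6) held the mature sequence of 8 of the 80 members, each from a hairpin outside Sfmbt2. They are printed because they show the repeats that define the families, and because miR-466i-3p and miR-467h were called at E10.5. Each runs 5′ to 3′ with the seed in capitals.
miR-466i-3p: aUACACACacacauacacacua
miR-467f: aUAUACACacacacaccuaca
miR-467g: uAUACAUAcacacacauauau
miR-466q: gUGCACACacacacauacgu
miR-466j: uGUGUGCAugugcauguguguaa
miR-466k: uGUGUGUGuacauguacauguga
miR-467h: aUAAGUGUgugcauguauaugu
miR-669n: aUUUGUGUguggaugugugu

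The 8 sequences fell into an AC-rich and a UG-rich kind, and each had a seed of its own. miR-466i-3p was 86.4% A and C, with a run of 11 alternating A and C bases, and lies at chr13:17747552-17747573 on the plus strand. Runs of 12 such bases were found in miR-467f (85.7% A and C, chr11:69635419-69635439, minus strand) and in miR-466q (70% A and C, chr3:28419988-28420007, plus strand). miR-467g, at chr5:34732872-34732892 on the minus strand, had a run of 9. On the other side, miR-669n was 90% U and G with a run of 8 alternating U and G bases (chr3:115979905-115979924, plus strand), and miR-466k was 69.6% U and G with a run of 9 (chr3:85467396-85467418, plus strand). Runs of 7 were found in miR-467h (68.2% U and G, chr9:115381898-115381919, plus strand) and miR-466j (73.9% U and G, chr10:60960802-60960824, plus strand). Among 1595 other miRNA rows with a sequence, 7 (0.439%) held an alternating UG run of at least 8 bases, counted on the mature strand only, and 0 held an alternating AC run of that length. The only other row that shared bases 2 to 8 with one of the 8 was miR-668-5p, which stayed under the abundance filter described below.

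In the GENCODE M21 annotation of GRCm38, 81 hairpins carried the names of these families, and 71 of them lay within Sfmbt2 (chromosome 2, 10370510 to 10595253, plus strand). These were 29 Mir669, 23 Mir466, 14 Mir467 and 5 Mir297 hairpins, all on the plus strand. They all lay in intron 10 of the 23-exon transcript used, and 0 overlapped an exon of any Sfmbt2 transcript. They spanned 51.6 kb, from 10466663 to 10518279, with a median distance of 298 bp between neighbouring starts. Several names stood for many copies, with 12 of Mir669a, 10 of Mir467a and 8 of Mir466b. Matched by name, 68 members mapped only to hairpins in Sfmbt2, 9 only to hairpins elsewhere, and the 3 miR-466f rows to both.

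**Figure D1:**
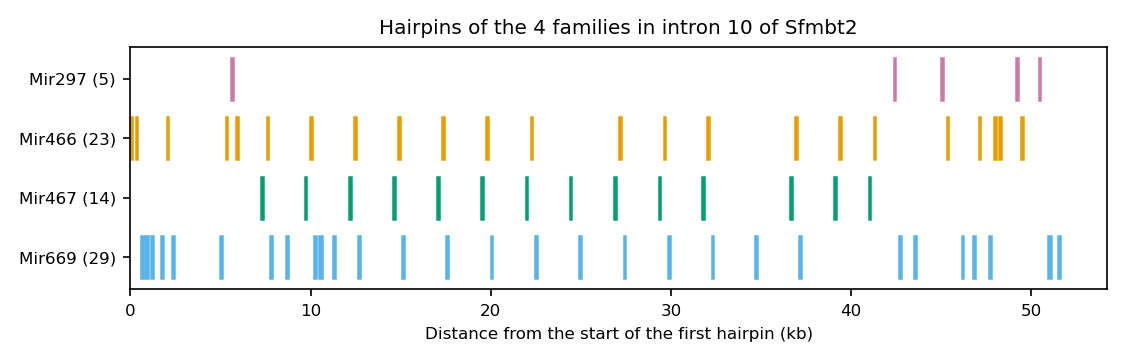
Position of each of the 71 annotated hairpins of the 4 families in intron 10 of Sfmbt2, as distance in kb from the start of the first hairpin, with 1 row of ticks per family. Mir466, Mir467 and Mir669 hairpins recur along most of the 51.6 kb, while 4 of the 5 Mir297 hairpins lie towards its 3′ end.

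Because the copies are so alike, many rows shared reads. The E10.5 table groups its rows into bundles, and the 80 members lay in 51 of them, 38 with a single row and 13 with several rows that held the other 42 members. The largest bundle held 10 members of 3 families (miR-466f-3p, miR-466i-3p, miR-466i-5p, miR-467b-3p, miR-467f, miR-669a-3p, miR-669c-3p, miR-669f-3p, miR-669o-3p and miR-669p-3p) together with miR-574-5p and miR-1187, which carry UG repeats and are not members. Another held 6 miR-466 3p arms (a, b, c, d, e and p), and another 5 rows of miR-467 (miR-467a-5p, miR-467b-5p, miR-467d-5p, miR-467e-5p and miR-467h). Between 52.1% and 61.7% of low member values were within 0.05 of a whole number of reads, against 97.3% to 100% in all single-row bundles, so a large part of the member values held fractions of reads. Several rows had the same value in every library, such as miR-466c-3p and miR-466p-3p, miR-466a-3p and miR-466e-3p, or miR-669a-5p and miR-669p-5p. A single row of a shared bundle is therefore uncertain, and the E10.5 comparison is also given for bundle sums.

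Library depths were 493235 to 802742 reads at E10.5 and about 3591954 to 4590104 at E12.5. Levels at E10.5 are RPM, reads scaled to a sum of 1000000 per library and not divided by length. Levels at E12.5 are TPM, scaled to the same sum after division by length. The 8 members with a sequence were 20 to 23 nt long. An observed 0 still allows up to 3 reads. In the E10.5 libraries that is 3.74 to 6.08 RPM, and 0.67 to 0.85 TPM in those of E12.5, for counting error only. The motoneuron sorts were checked with their marker miR-218-5p, and no marker of V2a or V3 cells was listed. It stood at 177890 and 200300 RPM in the E10.5 motoneuron libraries against 6623 and 7315 in the GFP-negative ones, and at 104200 TPM in E12.5 motoneurons against 7558 (V2a) and 7282 (V3). All 10 mesenchymal and smooth muscle miRNAs listed summed to 1571 and 424 RPM in motoneurons and to 81413 and 94290 RPM in GFP-negative cells.

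At E10.5, the families were higher in motoneurons than in the GFP-negative cells as a summed level. The 80 members added up to 4083 and 3198 RPM in the motoneuron libraries and to 2070 and 1865 RPM in the GFP-negative libraries. As group means this was 3641 ± 626 RPM against 1967 ± 144.7 (SD, n = 2 each), a 1.85-fold difference. The lowest motoneuron library was above the highest GFP-negative library, and with 2 libraries against 2 an exact two-sided permutation p cannot go below 0.333. As a share of all miRNA reads, the members made up 0.408% and 0.320% in motoneurons and 0.207% and 0.187% in GFP-negative cells. From sorted bulk RNA, fewer cells of a type and less RNA per cell cannot be told apart.

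The miR-466 family was the most abundant at E10.5, with 1998 and 1542 RPM in motoneurons and 906 and 856 RPM in GFP-negative cells, 2.01-fold. The miR-669 family summed to 1157 and 851 RPM against 559 and 483, 1.93-fold. For miR-467 the sums were 886 and 757 RPM against 567 and 488, 1.56-fold. These 3 families were each higher in both motoneuron libraries than in either GFP-negative library. The miR-297 family was the least abundant, at 42.4 and 48.7 RPM against 37.3 and 37.1. It was also higher in both motoneuron libraries, by 1.22-fold. At 1.25 to 2.03 RPM per read these miR-297 sums rest on few reads, and their difference was not tested against counting error. The only miR-297 member tested below, miR-297c-5p, had a log2 fold change of -0.07.

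The sums were also split by arm. The 3p arms of miR-466 held 1644 and 1265 RPM in motoneurons against 704 and 594 in GFP-negative cells, 2.24-fold. Its 5p arms held 178 and 138 RPM against 127 and 181, so the groups overlapped. In miR-669 the larger ratio was that of the 5p arms. They held 734 and 550 RPM against 287 and 239, 2.44-fold, and the 3p arms 423 and 299 against 272 and 242, 1.40-fold. The miR-669 5p sum was mostly miR-669c-5p and the miR-466 3p sum mostly rows of shared bundles, so these arm sums rest on few independent measurements. No difference between arms was tested.

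Of the 80 members, 76 were above 0 in at least 1 E10.5 library and 33 passed the abundance filter. It asked for 15.2 RPM, the value of 10 reads at the median depth, in 2 or more libraries. These were 1 of miR-297, 13 of miR-466, 8 of miR-467 and 11 of miR-669. The other 47 had a mean of at most 11.95 RPM and were not tested, and miR-466l-5p, miR-669h-3p, miR-669i and miR-669k-3p were at 0 in all 4 libraries. A limma fit over all 492 miRNAs that passed, with Benjamini-Hochberg adjustment, called 9 of the 33 members higher in motoneurons and 0 lower (17 had an unadjusted p under 0.05, each of them higher). Over all 492 miRNAs the same fit called 11.6% higher and 30.7% lower. In 27 of the 33 members both motoneuron libraries were above both GFP-negative libraries, and in 0 were both below, against 25% and 48.6% of all miRNAs tested. The median log2 fold change was 0.91 over the 33 members and -0.34 over all tested miRNAs. Members that reached the filter only through the motoneuron libraries had to be higher there. Of the tested members, 25 reached the filter value in both GFP-negative libraries. In the same fit, with no new adjustment, 9 of these were called higher against 11.1% of 450 such miRNAs. Their median was 0.87 against -0.41.

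The number of calls depended on single libraries and on the scaling. Without motoneuron replicate 1 limma called 4 of 30 members higher, against 6.14% of all miRNAs, and without GFP-negative replicate 2 it called 4 of 33, against 10.7%. With only all-zero miRNAs removed in place of the filter, 3 of 76 were called (miR-466i-3p, miR-669c-5p and miR-466d-3p), against 2.68% of 1270. In the last 2 of these settings the members' share was near that of all miRNAs. With median-of-ratios or TMM scaling 17 of 32 members were called higher and 0 lower. Those scalings put the median of all miRNAs at -0.06 and -0.11, the members' median at 1.19 and 1.14, and the shares of all miRNAs called at 17.4% higher with 23.9% and 26.2% lower. Relative to the median of all miRNAs, all 33 members lay above it as deposited.

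**Figure D2:**
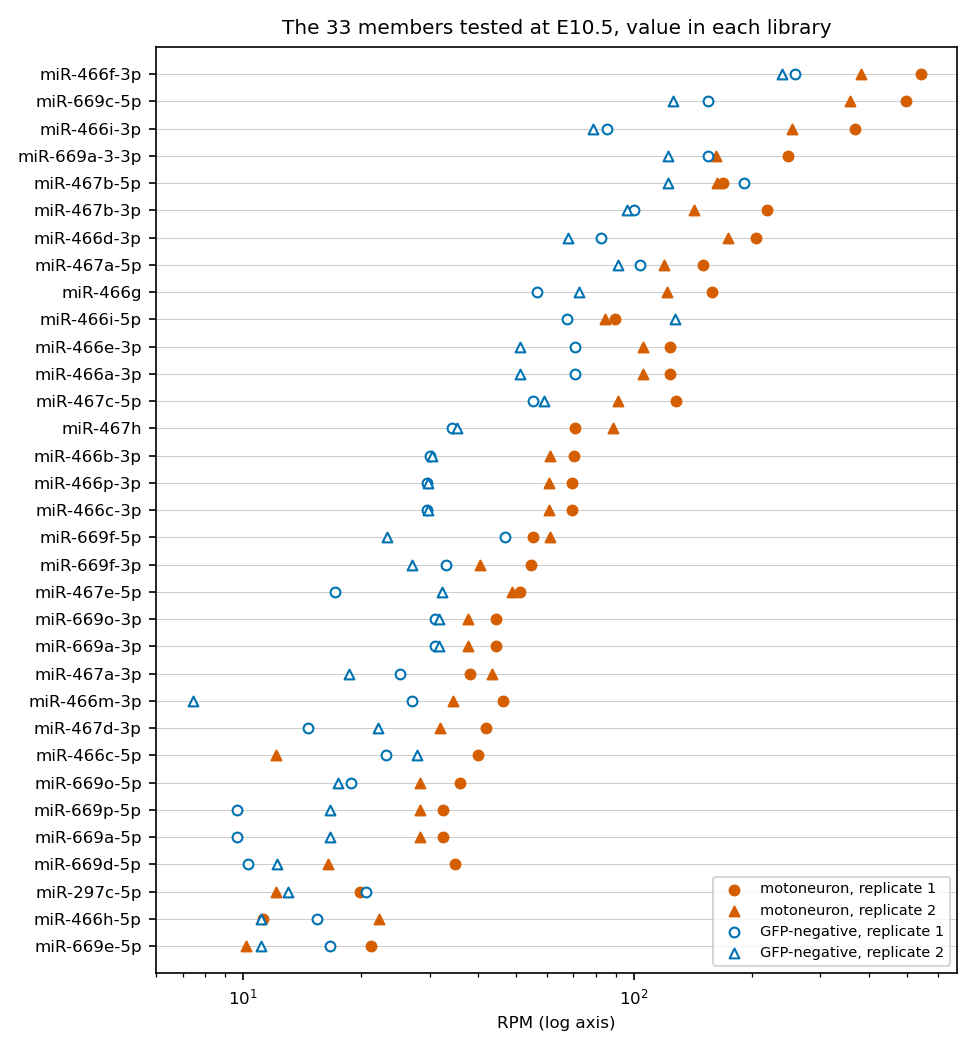
RPM of the 33 tested members in each E10.5 library, on a log axis, ordered by mean level. Filled orange symbols are the 2 motoneuron libraries and open blue symbols the 2 GFP-negative libraries, and in 27 of the 33 rows both orange symbols lie to the right of both blue ones.

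The 3p arms of miR-466 gave most of the calls. miR-466i-3p, the AC-repeat sequence printed above from chromosome 13, had the largest fold change of the members. It stood at 368 and 254 RPM in motoneurons and 85.3 and 78.4 RPM in GFP-negative cells, with log2 fold change 1.89 (SE 0.28, adjusted p = 0.00261 in limma). Its lower motoneuron library was far above both GFP-negative ones, although it shares its bundle with 11 other rows. miR-466f-3p, whose 4 hairpins lie in Sfmbt2 and on chromosome 13, was the most abundant member in each E10.5 library. It held 541 and 382 RPM in motoneurons against 258 and 239 RPM, with log2 fold change 0.87 (SE 0.25, adjusted p = 0.0287 in limma), and lost the call without motoneuron replicate 1 (adjusted p = 0.133) and without GFP-negative replicate 2 (adjusted p = 0.0539).

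miR-466d-3p, from the Sfmbt2 intron, stood at 205.5 and 174 RPM against 82.2 and 67.7 RPM, with log2 fold change 1.33 (SE 0.28, adjusted p = 0.00896 in limma). Of its bundle, miR-466b-3p held 70.2 and 61.1 RPM against 30.1 and 30.4 RPM, with log2 fold change 1.09 (SE 0.33, adjusted p = 0.0361 in limma). miR-466c-3p and miR-466p-3p, listed with identical values, held 69.3 and 60.8 RPM against 29.6 and 29.7 RPM (log2 fold change 1.11, SE 0.33, adjusted p = 0.0348 in limma). In each of these rows both motoneuron libraries were well above both GFP-negative ones. The calls of miR-466b-3p, miR-466c-3p and miR-466p-3p were lost when any 1 of the 4 libraries was left out, with limma adjusted p from 0.0627 to 0.103. miR-466a-3p and miR-466e-3p, also identical, held 123.6 and 106 RPM against 70.6 and 51.2 RPM and were not called (log2 fold change 0.91, adjusted p = 0.0548 in limma). Since rows of this bundle share reads, they are not separate measurements.

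miR-466g, which has a bundle of its own, was the only called member whose value did not depend on how shared reads were divided. It held 158 and 122 RPM in motoneurons and 56.6 and 72.4 RPM in GFP-negative cells, with log2 fold change 1.10 (SE 0.31, adjusted p = 0.0272 in limma). Without motoneuron replicate 1 its adjusted p was 0.106, and without GFP-negative replicate 1 it was 0.0715. The 3 tested 5p arms of miR-466 were not called, and the groups overlapped in each. miR-466i-5p held 89.6 and 84.2 RPM against 67.4 and 127 RPM, and miR-466c-5p held 39.9 and 12.2 RPM against 23.2 and 27.9 RPM, with both motoneuron values of miR-466i-5p lying between its GFP-negative ones.

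In the miR-669 family, miR-669c-5p was the single call. It held 496 and 357 RPM in motoneurons and 154 and 126 RPM in GFP-negative cells, with log2 fold change 1.59 (SE 0.27, adjusted p = 0.00371 in limma). The 2 groups were far apart, and the authors' deposited table lists a ratio of 3.04 for it. Its hairpin, Mir669c, lies in the Sfmbt2 intron at 10509296 to 10509404 on chromosome 2. miR-669a-5p and miR-669p-5p, listed with identical values, held 32.4 and 28.4 RPM against 9.65 and 16.7 RPM, a log2 fold change of 1.19 that missed the threshold (adjusted p = 0.0647 in limma). miR-669a has been described as a repressor of the muscle factor MyoD in cardiac progenitors. miR-669a-3-3p, in a bundle of its own, held 248 and 162 RPM against 154 and 122 RPM, a log2 fold change of 0.54 (adjusted p = 0.193 in limma). Its groups did not overlap, but motoneuron replicate 2 was just above GFP-negative replicate 1.

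Of miR-467, only miR-467h was called. This UG-rich miRNA from chromosome 9, printed above, held 70.5 and 88.6 RPM in motoneurons and 34.2 and 35.3 RPM in GFP-negative cells, with log2 fold change 1.16 (SE 0.33, adjusted p = 0.0282 in limma). It lost the call without motoneuron replicate 2 and without either GFP-negative replicate, with adjusted p from 0.0633 to 0.0916. miR-467b-5p, one of the most abundant members, held 169 and 163 RPM against 191 and 122 RPM, so the groups overlapped (log2 fold change 0.12, adjusted p = 0.776 in limma). Its partner arm miR-467b-3p held 219 and 142 RPM against 100.03 and 95.7 RPM (log2 fold change 0.84, adjusted p = 0.0634 in limma). miR-467a-5p, with 10 hairpin copies in the intron, held 150.2 and 119.5 RPM against 103 and 91.2 RPM (log2 fold change 0.46, adjusted p = 0.228 in limma). miR-467c-5p held 128 and 91.2 RPM against 55.3 and 58.7 RPM (log2 fold change 0.91, adjusted p = 0.0562 in limma). In these last 3 miRNAs the groups did not overlap, but the motoneuron libraries lay farther from each other than the lower of them lay from the GFP-negative pair.

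The remaining tested members of miR-466, miR-467 and miR-669 ran from log2 fold changes of 0.10 to 1.41, and none was called. miR-466m-3p, at the upper end, held 46.1 and 34.5 RPM in motoneurons against 27 and 7.43 RPM, so that its 2 GFP-negative libraries differed widely (SE 0.61, adjusted p = 0.103 in limma). miR-467e-5p held 51.1 and 48.7 RPM against 17.2 and 32.2 RPM (log2 fold change 1.05, adjusted p = 0.0842 in limma). miR-669f-5p held 55.1 and 60.9 RPM against 46.7 and 23.3 RPM (log2 fold change 0.79, adjusted p = 0.176 in limma). None of these 3 had overlapping groups. The single miR-297 member tested, miR-297c-5p, held 19.9 and 12.2 RPM in motoneurons and 20.6 and 13 RPM in GFP-negative cells. Its log2 fold change was -0.07 (SE 0.47, adjusted p = 0.913 in limma), and the groups overlapped.

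**Figure D3:**
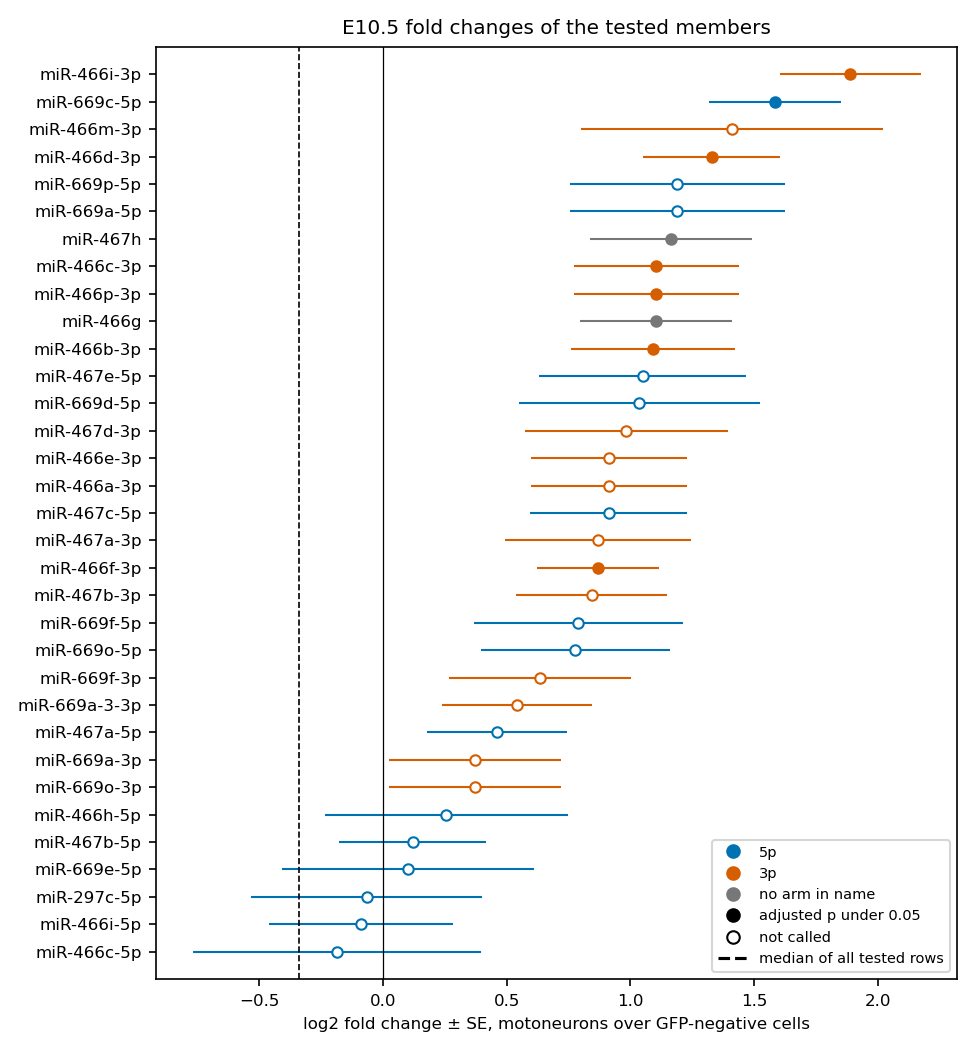
log2 fold change of motoneurons over GFP-negative cells with its SE for the 33 tested members, coloured by arm, with filled symbols for adjusted p under 0.05 and a dashed line at the median of all 492 tested miRNAs (-0.34). The 9 called members run from 0.87 to 1.89, and 30 of the 33 lie above 0.

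By arm, 6 of 16 tested 3p members, 1 of 15 tested 5p members and both tested members without an arm in the name were called higher, where 11.6% of all miRNAs tested were. All 16 tested 3p members had both motoneuron libraries above both GFP-negative ones, as did 9 of the 15 tested 5p members and 25% of all miRNAs tested. Most tested 3p rows lie in shared bundles and some carry identical values, so the rows counted by arm are not separate measurements. The difference between the arms was not tested. By place, 6 of 29 tested members with hairpins only in Sfmbt2 were called (median log2 fold change 0.91), and 2 of 3 with hairpins only elsewhere. The Sfmbt2-only members summed to 2980 and 2356 RPM in motoneurons against 1583 and 1360, and the members placed elsewhere to 552 and 458 RPM against 218.3 and 258. Most of the second sum came from miR-466i-3p, miR-466i-5p and miR-467h, whose bundles also hold rows with hairpins in Sfmbt2, so the places are not separate measurements.

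Bundle sums, which do not depend on how reads were divided within a bundle, gave fewer units. Of low member bundle sums, 73.3% to 100% were within 0.05 of a whole number of reads. In all single-row bundles it was 97.3% to 100%, so some member bundle sums still held fractions of reads. Of 16 member bundles tested, 3 were called higher and 0 lower (limma, Benjamini-Hochberg over 420 bundles), and 7 had an unadjusted p under 0.05. Over all 420 bundles, 10% were called higher and 29.5% lower. In 12 of the 16 both motoneuron libraries were above both GFP-negative ones and in 0 below, against 23.1% and 50.2% of all bundles. Without motoneuron replicate 1 limma called 1 of 13, near the 5.72% of 402 bundles in all. With median of ratios it called 7 of 16 and with TMM 7 of 15, against 15.48% and 15.46% of all bundles.

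miR-669c-5p together with miR-669n had a log2 fold change of 1.58 (adjusted p = 0.00538 in limma). The bundle of 6 miR-466 3p arms held 661 and 567 RPM in motoneurons against 313 and 260 RPM, with log2 fold change 1.10 (SE 0.21, adjusted p = 0.00874 in limma), and missed the threshold without motoneuron replicate 1 (adjusted p = 0.0505). miR-466g was the third call, with an adjusted p of 0.0309 in limma. It missed the threshold without motoneuron replicate 1 (adjusted p = 0.115), motoneuron replicate 2 (0.0533) or GFP-negative replicate 1 (0.0857). The bundle of 5 miR-467 rows held 446 and 431 RPM against 351 and 281 RPM and was not called (log2 fold change 0.48, adjusted p = 0.117 in limma). The groups of that bundle were apart even though those of miR-467b-5p, its most abundant row, were not.

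The largest bundle also held rows that are not members. With miR-574-5p and miR-1187 included it held 1432 and 1027 RPM in motoneurons against 759 and 798 RPM, a log2 fold change of 0.64 that was not called (adjusted p = 0.0572 in limma). Its 10 member rows alone summed to 1389.5 and 1002 RPM against 633 and 662 RPM. That sum was not fitted, and it depends on how reads were divided within the bundle. miR-574-5p, a UG-repeat miRNA encoded in an intron of Fam114a1, was lower in motoneurons. It held 26.5 and 16.9 RPM in motoneurons and 119 and 129.6 RPM in GFP-negative cells, with log2 fold change -2.50 (SE 0.36, adjusted p = 0.0021 in limma). Whether reads passed between it and the members in the authors' counting was not tested.

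The mesenchymal markers given above, of which miR-145a-3p was at 0 in both motoneuron libraries and miR-143-5p at 0 in 1 of them, and the muscle list (355 and 130 RPM in motoneurons against 4192 and 3796), were far higher in GFP-negative cells, opposite to the members. Both neuronal miRNAs listed, miR-124-3p and miR-9-5p, summed to 25031 and 31314 RPM in motoneurons against 23568 and 19263. Of these, miR-124-3p was called higher in motoneurons (log2 fold change 2.12, SE 0.29, adjusted p = 0.00181 in limma), on the same side as the members, and miR-9-5p was not called (0.38, SE 0.18, adjusted p = 0.124). The 3 blood miRNAs summed to 12.46 and 6.08 RPM in motoneurons against 30.9 and 13 RPM. Pluripotent and early embryonic miRNAs, of which 8 of 9 listed had a row, summed to 323 and 397 RPM against 230 and 347 RPM, so the groups overlapped. Their part in the members' difference was not tested.

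At E12.5 the 3 populations held about the same summed level of the families, carried by few members. The sums were 1523 (motoneurons), 1506 (V2a) and 1272 TPM (V3), or 0.152%, 0.151% and 0.127% of each library. With 1 library per population there is no replicate check, and the ratios of 1.01 (motoneuron over V2a) and 1.197 (motoneuron over V3) describe these libraries only. By family and in the order motoneurons, V2a, V3, miR-669 led with 813, 684 and 713 TPM. The miR-466 sums were 378, 649 and 360 TPM, so V2a stood above the other two. miR-467 held 320, 170 and 195 TPM, with motoneurons highest. miR-297 was low, at 11.3, 3.11 and 4.12 TPM.

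The 3 most abundant members held 77.5% to 86.2% of the sum at E12.5. miR-669c-5p was the highest in each library, at 728 (motoneurons), 628 (V2a) and 671 TPM (V3). Its ratio of motoneuron over V2a was 1.16, with a 95% exact counting interval of 1.11 to 1.24 that covers counting error only. miR-466h-5p, described as pro-apoptotic in Chinese hamster ovary cells, held 298, 591 and 312 TPM in the same order. V2a thus had the most, and the ratio of motoneuron over V2a was 0.505 (0.474 to 0.548). Its level in motoneurons and V3 differed by little, with a ratio of 0.957 (0.892 to 1.05). At E10.5 this miRNA was near the filter, at 11.2 and 22.3 RPM in motoneurons and 15.4 and 11.1 RPM in GFP-negative cells.

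The miR-467 5p arms accounted for most of the excess of that family in motoneurons. miR-467a-5p held 153, 78.6 and 85.7 TPM in that order, a motoneuron over V2a ratio of 1.95 (1.72 to 2.27). miR-467e-5p held 63.6, 21.6 and 29.96 TPM, a ratio of 2.95 (2.33 to 3.80) over V2a and 2.12 (1.72 to 2.70) over V3. miR-467c-5p was more even, at 74.3, 55.9 and 65 TPM. Its motoneuron over V3 ratio of 1.14 had an interval that included 1 (0.972 to 1.375), so motoneurons were highest beyond counting error only for the first 2 of these 3. miR-466c-5p, at 20.9, 9.88 and 12.2 TPM, also had its highest value in motoneurons.

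The rest of the 15 most abundant members differed in which library was highest. miR-467h, called at E10.5, held 10.9, 3.58 and 4.85 TPM in motoneurons, V2a and V3, a motoneuron over V2a ratio of 3.05 (1.70 to 5.97). miR-669f-5p was highest in V3, at 8.01, 4.48 and 14.8 TPM, and the ratio of V2a over V3 was 0.302 (0.171 to 0.503). miR-669l-5p was highest in V2a, at 3.44, 10.1 and 4.35 TPM. For miR-669o-5p (7.4, 4.08 and 6.02 TPM) and for the identical miR-466a-3p and miR-466e-3p (7.03, 7.67 and 4.97 TPM) the counting intervals of all ratios included 1. Over all 80 members, 67 were above 0 in at least 1 E12.5 library and 13 were at 0 in all 3.

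At a difference of 4-fold on log2(TPM + 1), among 36 members that reached 2.41 TPM (about 10 reads) in at least 1 library, few separated motoneurons from V2a. There 1 member was higher and 0 lower in motoneurons, against 4.17% and 8.05% of 1006 miRNAs considered. Between motoneurons and V3, 8 members were higher and 1 lower in motoneurons, against 8.75% and 3.68%. Between V2a and V3, 4 were higher and 3 lower in V2a, against 10.9% and 2.78%. Some of the rows counted in these pairs share a bundle or carry identical values, so they are not separate measurements. The members' median log2 difference was 0.78 for motoneuron minus V2a (all miRNAs -0.30), 0.55 for motoneuron minus V3 (0.24) and 0.14 for V2a minus V3 (0.52).

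All 12 members past 4-fold in some pair were at 14.6 TPM or less, so they rest on few reads. miR-297a-5p stood at 5.91 TPM in motoneurons and 0 in V2a and V3, which is 8.83 and 8.18 times the value of 3 reads in those libraries. The exact counting intervals put it at least 6.65-fold and 6.18-fold higher. miR-669a-5p and miR-669p-5p held 14.6, 4.44 and 1.55 TPM, with a motoneuron over V3 ratio of 9.40 (4.42 to 29.3). Motoneurons also had the higher values of these rows at E10.5, where they were not called. miR-466g held 6.32, 1.88 and 0.26 TPM, and its motoneuron over V3 ratio of 24.5 had an interval of 4.22 to 1078, since V3 held about 1 read.

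Several members were lowest in V3 and detected in the other two populations. miR-669f-3p held 9.97 TPM in motoneurons and 9.78 in V2a against 0 in V3, at least 10.7-fold and 10.6-fold higher by the counting intervals. miR-467d-3p held 5.63 and 5.11 TPM against 0, at least 5.86-fold and 5.34-fold higher in the same way. miR-466i-3p held 4.93 and 9.37 TPM against 0.10, which is under 1 read. miR-669e-5p held 3.10, 1.98 and 0 TPM, and miR-669d-5p held 1.97, 3.59 and 0 TPM, with lower interval ends of 2.98-fold (miR-669e-5p, motoneuron over V3) and 3.58-fold (miR-669d-5p, V2a over V3). The opposite was seen for miR-466e-5p, with 5.66 TPM in V3 and 0 in both others, at least 5.07-fold over motoneurons and 6.48-fold over V2a by the counting intervals. miR-466m-5p and miR-669m-5p, listed with identical values in different bundles, held 2.95, 0 and 4.46 TPM, so V2a was the library without reads.

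**Figure D4:**
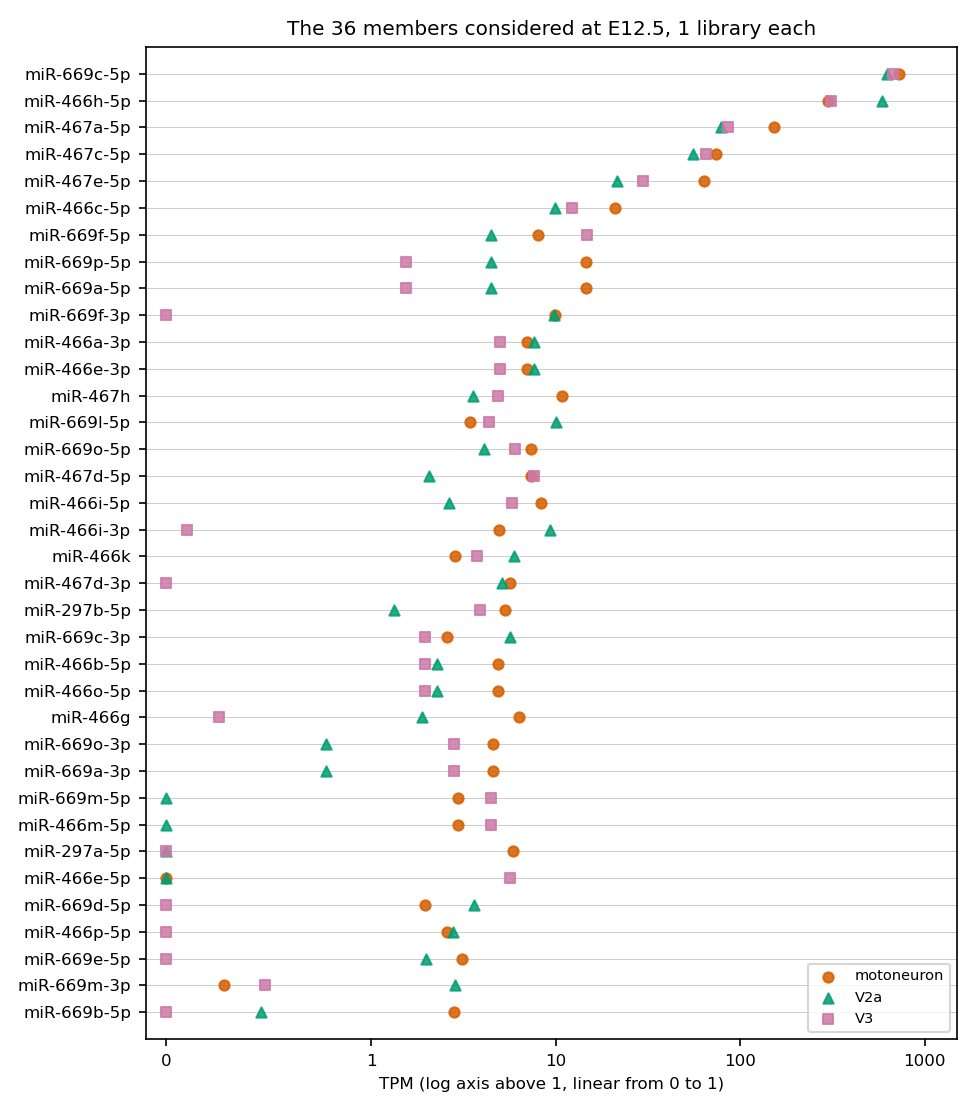
TPM of the 36 members considered at E12.5 in the motoneuron, V2a and V3 libraries (1 library each), on an axis that is linear from 0 to 1 TPM and logarithmic above. miR-669c-5p and miR-466h-5p lead, V2a has the highest miR-466h-5p value (591 TPM), and the members past 4-fold all lie at 14.6 TPM or less.

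The balance of arms was the clearest difference between the E10.5 and E12.5 tables. At E10.5, 3p arms held 62.2% and 61.0% of the members' 3p and 5p reads in motoneurons and 58.1% and 56.7% in GFP-negative cells. At E12.5 they held 3.75% (motoneurons), 3.90% (V2a) and 1.75% (V3). All other miRNAs stood at 28.2%, 26.7%, 37.7% and 39.5% at E10.5 and 21.95%, 23.5% and 19.9% at E12.5. The share of 3p arms was thus lower at E12.5 both in the families and in other miRNAs, and by far more in the families, a comparison without a test. In absolute terms, on scales set separately for each table, the E10.5 libraries held 983 to 2381 RPM of 3p arms and 751 to 1444 RPM of 5p arms. The E12.5 libraries held 22.2 to 58.2 TPM of 3p arms and 1240.5 to 1444 TPM of 5p arms. Members in single-row bundles showed the same, with 3p shares of 46.9% to 55.3% (E10.5) and 0.558% to 1.66% (E12.5). These shares rest largely on single rows. At E10.5 miR-669a-3-3p held 122 to 248 RPM, where the single-row 3p sums were 146.5 to 335 RPM. At E12.5 miR-466h-5p held 298 to 591 TPM, where the single-row 5p sums were 412 to 676 TPM.

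Of 17 hairpin names with both arms as rows and enough reads in both tables, 16 had a lower share of 3p at E12.5. The exception was miR-467b, with 46.3% at E10.5 and 67.4% at E12.5, where its arms averaged 0.86 (5p) and 1.79 TPM (3p). Some names were almost all 5p already at E10.5, such as miR-467c (1.08%, then 0%) and miR-669c (1.51%, then 0.50%). Several names share reads, so they are not separate measurements. miR-466f-3p, the most abundant member at E10.5, was listed at 0, 0 and 0.22 TPM, and miR-466d-3p at 0, 0.04 and 0 TPM. miR-669a-3-3p stood at 0.80, 0 and 0 TPM after 122 to 248 RPM at E10.5. Of the 16 3p members that passed the E10.5 filter, 9 were under the E12.5 filter in each library. No 3p member was above 9.97 TPM at E12.5. Low values at E12.5 were not limited to 3p arms. miR-467b-5p held 122 to 191 RPM in the E10.5 libraries and 1.80, 0 and 0.80 TPM at E12.5, while miR-467a-5p of the same bundle stood at 78.6 to 153 TPM. Stage and table cannot be told apart here. The tables were also deposited in different units, and whether the authors' reference or their handling of reads that fit several rows differed between them was not tested.

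**Figure D5:**
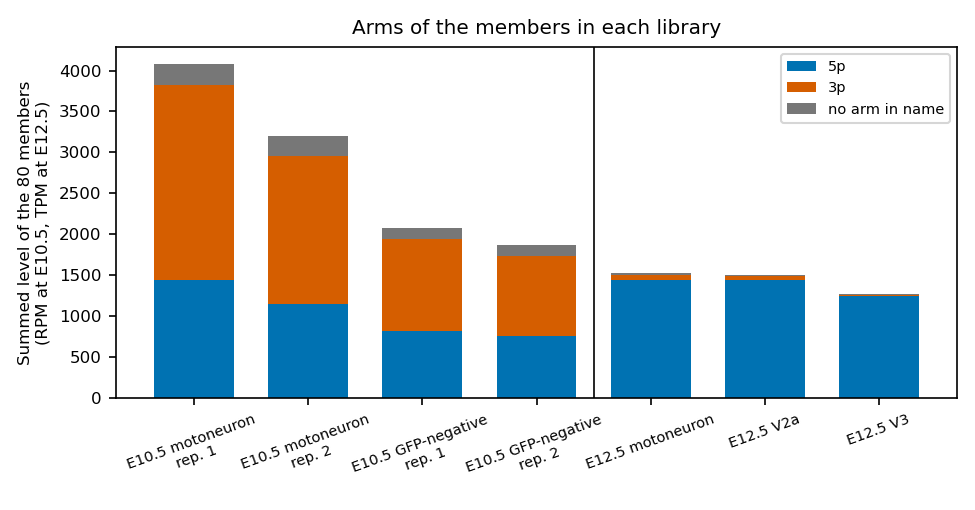
Summed level of the 80 members in each library, stacked by arm, in RPM for the 4 E10.5 libraries and in TPM for the 3 E12.5 libraries, with a line between the separately scaled tables. The 3p part is 983 to 2381 RPM at E10.5 and at most 58.2 TPM at E12.5, while the 5p part stays between 751 and 1444 in both units.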

How the data were processed

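Small RNA libraries came from cells sorted from papain-dissociated spinal cord, made with a NEBNext small RNA kit, per the labels' protocols. The submitters' processing notes name Bowtie2, with no version. The sources used here do not give the counter, the build or the annotation. RPM fill the table that the authors deposited for E10.5, with their group means and a linear ratio of those means. The deposited E12.5 values carry no unit and were read as FPKM and rescaled to a sum of 1000000 (TPM). E12.5 read numbers assume 22 nt and are approximate. Whole reads could not be recovered for rows in shared bundles, so no count model was used.

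Groups were taken from sample titles and tested only within the E10.5 table. limma 3.58.1 (R 4.3.3, mean-variance trend, two-sided) was fitted to log2(RPM + 1) over all miRNAs with at least 15.2 RPM in 2 libraries, and over bundle sums, with Benjamini-Hochberg adjustment at 0.05. Fold changes on this scale understate those of low miRNAs. The fit was tested on simulated data. Summaries used Python 3.11.15 and pandas 2.3.3. Depth came from the smallest step of the values, and intervals are 95% exact (Clopper-Pearson) counting intervals. They were computed on E12.5 read numbers rounded to whole reads. Of low E12.5 values in single-row bundles, 77.2% to 82.8% were within 0.05 of a whole number of reads, so some values held fractions. The intervals do not cover how shared reads were divided and may be too narrow. Alternatives were other pseudocounts, filters, scalings, fold thresholds, left-out replicates or members, and a replicate block. Named were all called members, the 15 most abundant per table and those past 4-fold at E12.5, with a few others added for their arm or copy. Members and lists were chosen with earlier results of these data known. Hairpin positions are from GENCODE M21 (GRCm38) by name, independent of the authors' build.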

Additional observations from a re-analysis of the deposited data

How the results depend on the processing

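The E10.5 fits were repeated under 11 other settings, and members called lower numbered 0 in each. miR-466i-3p (log2 fold change 1.62 to 2.16, limma adjusted p 0.000442 to 0.0163), miR-669c-5p (1.35 to 1.86, 0.000684 to 0.0281) and miR-466d-3p (1.19 to 1.60, 0.00427 to 0.046) passed in all 11. The other 6 called members each missed the threshold in 3 to 5 settings. None of these settings changed how shared reads were divided among the rows of a bundle. Summed, the largest bundle, which holds miR-466i-3p, was not called in the main fit (log2 fold change 0.64, adjusted p = 0.0572 in limma). Against 9 members called higher, the count was 3 with only all-zero rows removed (2.68% of the 1270 rows tested). It was 17 with median of ratios (17.38% of all miRNAs) and 17 with TMM (17.42%). Against 3 bundles, it was 6 with a pseudocount of 10 (11.67% of all bundles) and 7 with either scaling (15.48% and 15.46%). With 1 library left out, the median log2 fold change was 0.73 to 1.03 over members and 0.61 to 0.92 over member bundles. With a replicate block the counts were 12 of 33 members (13.6% of all miRNAs) and 2 of 16 bundles (10% of all bundles), and the miR-466g bundle lost its call (adjusted p = 0.0533 in limma). Replicate 1 deviations of the groups correlated at r = 0.26 over 492 miRNAs, and 2 pairs do not establish a pairing. The log2 ratio of summed levels was 0.89, and 1.16 with median of ratios. Signs turned for miR-467b-5p (0.12, from -0.20 to 0.44 with 1 library left out, lowest without GFP-negative replicate 2) and miR-466i-5p (0.18 with median of ratios, 0.14 with TMM, and -0.54 to 0.36 with 1 library left out, highest without GFP-negative replicate 2). They also turned for miR-466c-5p (0.078 with median of ratios, 0.037 with TMM, and -1.004 to 0.63 with 1 library left out, above 0 without motoneuron replicate 2), miR-297c-5p (0.19, 0.15, and -0.38 to 0.27, above 0 without motoneuron replicate 2) and miR-669e-5p (-0.17 to 0.60, below 0 without GFP-negative replicate 2). None of these 5 was called. The cause was not tested.

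At E12.5, a pseudocount of 10 left 0 members past 4-fold in each pair. That was fixed in advance for the members past 4-fold in the main setting. All of them lay at 14.6 TPM or less, where this pseudocount allows no 4-fold difference. At 2-fold, 15 of 36 were higher and 2 lower in motoneurons against V2a (16.1% and 28.1% of 1006 miRNAs), 13 higher and 1 lower against V3 (28.5% and 14.8%), and 12 higher and 8 lower in V2a against V3 (32.3% and 9.94%). Some rows counted at 2-fold share reads and are not separate measurements. The log2 ratio of sums for motoneuron over V2a was 0.02, and 0.27 (median of ratios), 0.25 (TMM) or -0.14 (without miR-669c-5p). For motoneuron over V3 it was 0.26, and 0.020, 0.053 or 0.40. For V2a over V3 it was 0.24, and -0.25 or -0.19 with the scalings and 0.55 without miR-669c-5p, so the order of these sums depended on the scaling. Depth limits members under about 10 reads.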
